A study of Mus musculus with 3 samples.

Results

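Out of 37620 gene identifiers, 10 genes of epidermal differentiation are described, chosen by symbol after their RPKM in TUDCA-treated and control hepatocytes was known. They are Sprr1a, Sprr1b, Crct1, Lor, Lce1f, Lce1g and Lce1h, all of the epidermal differentiation complex, together with Aloxe3, Sfn and Krt5. Because the RPKM differences from DMSO entered that choice, their values in that contrast are a description without a test. The label of cornified envelope genes fits the loricrin, SPRR and LCE genes. Aloxe3 encodes a lipoxygenase of barrier lipid synthesis, Sfn a 14-3-3 protein and Krt5 a keratin, and none of these is a classical envelope precursor.

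Messenger RNA was sequenced from primary hepatocytes of C57BL/6 mice at passage 1, isolated by collagenase perfusion and kept on gelatin in medium with serum and insulin. For 1 library the hepatocytes received DMSO, a solvent, and for 2 they received tauroursodeoxycholic acid (TUDCA, a taurine-conjugated bile acid) at 100 mM for 24 h as labelled. This unit may be an error and could not be checked, so the dose is uncertain. The labels give no duration for DMSO, so culture time and TUDCA cannot be told apart. They mention 2 independent experiments without saying which library belongs to which, so p-values measure only the spread of the TUDCA pair, which may be technical. The libraries held between 9757547 and 10774289 reads. Levels are in RPKM, reads per kilobase of gene scaled to library size, and can be compared between genes.

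The cornified envelope is the crosslinked protein shell that replaces the plasma membrane of dying keratinocytes. Transglutaminases join loricrin, small proline-rich (SPRR) proteins and late cornified envelope (LCE) proteins to the desmosomal plaque proteins envoplakin and periplakin, and lipoxygenases process the ceramides that attach to its outside. Most of its precursors lie side by side in a gene cluster on mouse chromosome 3, the epidermal differentiation complex. Hepatocytes do not cornify. Sprr1a is also known from injured tissues outside the skin, such as cut nerves and stressed heart muscle.

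Promoter sequence from RefSeq (GRCm38.p6) matched 7 of the 10 genes, Sprr1a, Sprr1b, Lor, Lce1g, Lce1h, Sfn and Krt5. Crct1, Lce1f and Aloxe3 were not matched. The 160 bases before the annotated start are shown for the SPRR1 pair and Lor, the precursors with the word TGANTCA. This word is looser than TGA(C/G)TCA, the core bound by AP-1 factors. Also shown are those bases for the LCE pair with the deepest differences. In the first 3 genes, capitals mark TGANTCA and TATAAA, the TATA box. All lie on the minus strand and read 5′ to 3′ towards the gene, Sprr1a at chr3:92485882-92486041, Sprr1b at chr3:92438780-92438939 and Lor at chr3:92083143-92083302.
Sprr1a: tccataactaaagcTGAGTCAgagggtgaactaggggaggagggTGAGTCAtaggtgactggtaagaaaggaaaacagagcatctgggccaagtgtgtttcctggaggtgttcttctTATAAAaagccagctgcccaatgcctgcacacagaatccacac
Sprr1b: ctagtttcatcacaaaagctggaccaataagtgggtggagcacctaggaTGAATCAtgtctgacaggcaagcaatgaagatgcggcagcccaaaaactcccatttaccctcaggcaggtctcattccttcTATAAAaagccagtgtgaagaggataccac
Lor: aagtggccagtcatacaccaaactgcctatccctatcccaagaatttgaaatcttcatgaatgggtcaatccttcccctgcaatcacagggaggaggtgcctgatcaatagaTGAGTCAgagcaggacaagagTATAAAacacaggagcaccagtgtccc

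Counted from the start, TGANTCA begins at -146 and -116 in Sprr1a, at -111 in Sprr1b and at -48 in Lor. It reads TGAGTCA in Sprr1a and Lor but TGAATCA in Sprr1b, which departs from the AP-1 core. Searched on both strands over windows from 250 bases before to 50 after the start, TGANTCA was found in 3 of the 7 windows and in 7.81% of all 32851 windows, and TATAAA in 3 of 7 and in 13.6%. A variant of the TATA box, ATAAAAG, was chosen after the sequences were seen. It begins at -29 in Lce1g, Lce1h and Krt5 and occurs in 5.42% of all windows. The 3 words do not overlap in these genes. A match is a description of letters only.

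For Lce1g (chr3:92752339-92752498, minus strand) and Lce1h (chr3:92765066-92765225, minus strand) capitals mark the 39 bases that both share without a difference up to the start. Over 250 bases the upstream sequences were 84.5% identical. Those of Sprr1a and Sprr1b were 52.2% identical.
Lce1g: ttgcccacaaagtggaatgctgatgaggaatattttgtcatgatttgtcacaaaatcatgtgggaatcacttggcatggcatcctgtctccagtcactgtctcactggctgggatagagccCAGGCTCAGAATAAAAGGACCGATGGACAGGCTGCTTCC
Lce1h: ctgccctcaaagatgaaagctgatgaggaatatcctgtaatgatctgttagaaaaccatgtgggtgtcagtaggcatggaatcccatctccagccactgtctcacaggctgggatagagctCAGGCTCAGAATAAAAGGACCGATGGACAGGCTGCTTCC

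Before any treatment effect is considered, the control hepatocytes carried 1 of these transcripts at a very high level. Sprr1a (ENSMUSG00000050359), an SPRR crosslinking precursor, stood at 8877 RPKM in DMSO, rank 4 of all genes, above albumin. It was 1.54 times Alb in DMSO and 0.779 and 0.921 times Alb in TUDCA replicates 1 and 2. Crct1 (ENSMUSG00000027913), a small cysteine-rich protein encoded beside the LCE genes, followed at 801.9 RPKM and rank 126. The other 8 ranged from 43.7 RPKM for Lce1g down to 3.10 RPKM for Sprr1b. In order of DMSO level they were Lce1g, Krt5, Aloxe3, Sfn, Lce1h, Lor, Lce1f and Sprr1b. The 95% counting intervals of Aloxe3 (15.3 to 19.0 RPKM) and Sfn (14.1 to 17.9 RPKM) overlapped, as did those of Lce1h and Lor and those of Lce1f and Sprr1b. Without a second DMSO library the spread between cultures behind this order is unknown.

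**Figure D1:**
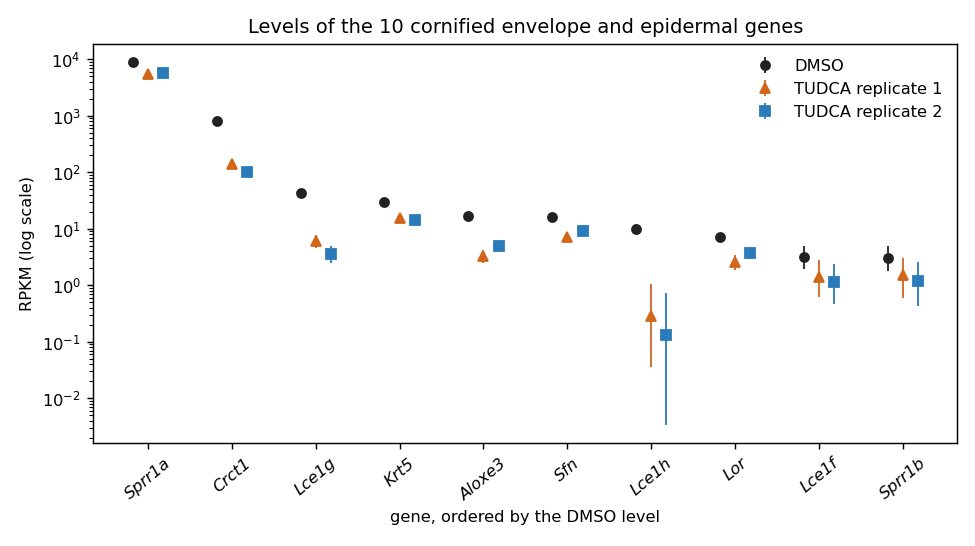
RPKM on a log axis of the 10 genes in the DMSO library and the 2 TUDCA libraries, with bars for 95% exact Poisson intervals of the reads, which cover counting error only. The DMSO point is the highest of the 3 for every gene, and levels span from 8877 RPKM for Sprr1a to 3.10 RPKM for Sprr1b in DMSO.

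The 10 genes were all lower in both TUDCA libraries than in DMSO. Among the 11300 genes averaging 1 RPKM or more, DMSO lay above both TUDCA libraries for 30.4%, and since the same contrast chose the 10 genes, nothing is read from their count. A log2(RPKM + 1) difference of -1 or below in both libraries was reached by 4 of the 10, Lce1h, Lce1g, Crct1 and Aloxe3, and by 0.283% of all genes, against 0.77% that reached 1 or more upwards. The median difference of the 10 was -1.11 for TUDCA replicate 1 and -0.98 for replicate 2, against 0.06 and 0.02 over all genes. All 10 passed the filter of 1 RPKM, Lce1h only through its DMSO value. Both TUDCA libraries are set against the same DMSO library, so their differences are not independent. In bulk RNA, fewer cells with a transcript and less of it per cell cannot be told apart.

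**Figure D2:**
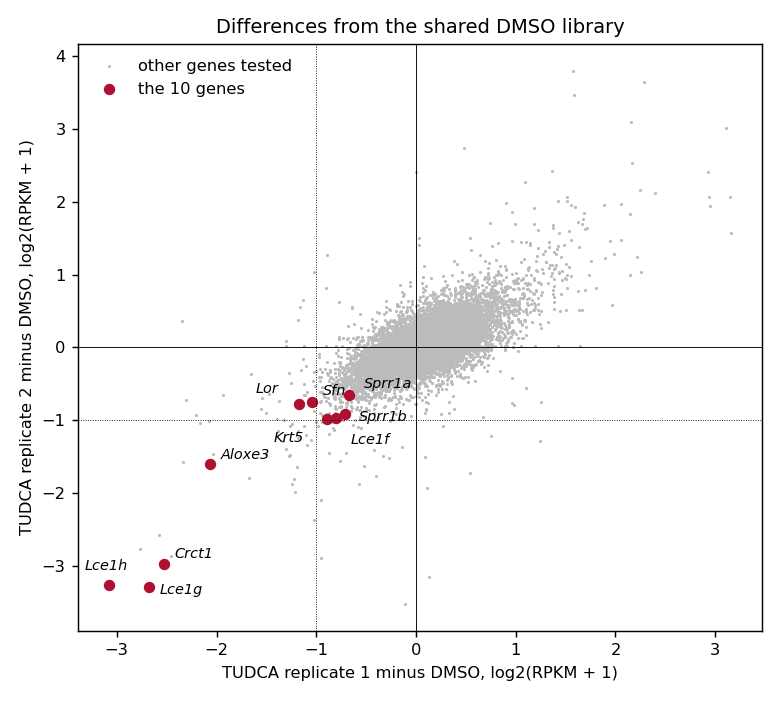
Differences of log2(RPKM + 1) from the shared DMSO library in TUDCA replicate 1 (horizontal) and replicate 2 (vertical) for all genes tested (grey) and the 10 genes (red), with dotted lines at -1. Lce1h, Lce1g and Crct1 lie between -3.29 and -2.53 in both, Aloxe3 lies at -2.07 and -1.61, and the other 6 lie between -0.66 and -1.17.

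Among the SPRR precursors, Sprr1a read 8877 RPKM in DMSO and 5591 and 5626 (5608 ± 24.5, SD, n = 2) in TUDCA replicates 1 and 2. The TUDCA pair differed by a ratio of 1.01 (counting interval 0.993 to 1.02), and DMSO was 1.59 and 1.58 times as high. On the log2 scale the mean difference of -0.66 was the smallest of the 10. Among the 100 genes of highest mean level, it was number 3 from the lowest, a place from which nothing is read because this contrast chose the gene. Sprr1a took 0.715% of all reads in DMSO and 0.451% and 0.453% with TUDCA. Its paralog Sprr1b, another crosslinking precursor next but one in the cluster, read 3.10 RPKM in DMSO and 1.498 and 1.18 with TUDCA, on only 16, 7 and 6 reads. The counting intervals of its ratio to DMSO (0.168 to 1.24 and 0.122 to 1.03) reached 1 in both libraries, so a difference was not detectable at this depth by counting alone.

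The SPRR1 paralogs thus stood at levels 2863-fold apart in DMSO. This fold is imprecise, because Sprr1b rests there on 16 reads (counting interval 1.77 to 5.03 RPKM). No 50-base stretch of either annotated transcript occurs in another gene's transcript in GENCODE M21. Between them lies Sprr3, another SPRR gene, which had no read in any library.

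Crct1 read 801.9 RPKM in DMSO and 138.2 and 101.3 with TUDCA (119.7 ± 26.1, SD, n = 2). It was 5.80 times (counting interval 5.39 to 6.26) and 7.92 times (7.29 to 8.61) lower. For every 100 RPKM of Sprr1a there were 9.03 of Crct1 in DMSO and 2.47 and 1.80 with TUDCA, so the pair did not change in proportion. Its rank among all genes went from 126 in DMSO to 867 and 1242.

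The LCE genes encode cysteine-rich precursors added late in cornification. Lce1g (ENSMUSG00000027919) read 43.7 RPKM in DMSO and 5.98 and 3.58 with TUDCA, which is 7.31 and 12.2 times lower. Lce1h read 9.86 RPKM in DMSO and 0.290 and 0.134 with TUDCA. The TUDCA values of Lce1h rest on 2 reads and 1 read against 75 in DMSO, giving ratios of 0.0294 (counting interval 0.00350 to 0.110) and 0.0136 (0.000339 to 0.0780). Lce1h and Lce1g had the lowest mean log2 differences of all genes tested, -3.17 and -2.98, and Crct1 followed at -2.75 and rank 4. Since the same contrast chose these genes, nothing is read from their ranks. Lce1h was among the genes tested only through its DMSO value. At a pseudocount of 0.1 the difference of Lce1h was -5.04.

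Lce1f, next to Lce1g in the cluster, read 3.24 RPKM in DMSO and 1.43 and 1.16 with TUDCA, on 20, 8 and 7 reads. The counting interval of its ratio to DMSO reached 1 in TUDCA replicate 1 (0.168 to 1.05) but not in replicate 2 (0.127 to 0.878). For every 100 RPKM of Lce1g there were 7.41 of Lce1f in DMSO and 23.9 and 32.3 with TUDCA, whereas Lce1h went from 22.5 to 4.85 and 3.74. The counting intervals of the ratio to DMSO overlapped between Lce1g and Lce1h in both libraries, and between Lce1f and Lce1g in replicate 1 only. Those of Lce1f and Lce1h did not overlap in either library, with Lce1h resting on 2 reads and 1 read. Annotated transcripts of Lce1f, Lce1g and Lce1h share 13.8, 17.8 and 19.9% of their 50-base stretches with other genes, most often Lce1c, Lce1j and Lce1i. The counting of reads that match several genes is not stated in the labels, and their split among LCE1 genes is uncertain.

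Lor encodes loricrin, the main structural protein of the epidermal envelope. It read 7.11 RPKM in DMSO and 2.60 and 3.73 with TUDCA, that is 2.74 times (counting interval 1.94 to 3.92) and 1.91 times (1.42 to 2.58) lower. For every 100 RPKM of Lce1g there were 16.3 of Lor in DMSO and 43.4 and 104.2 with TUDCA.

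**Figure D3:**
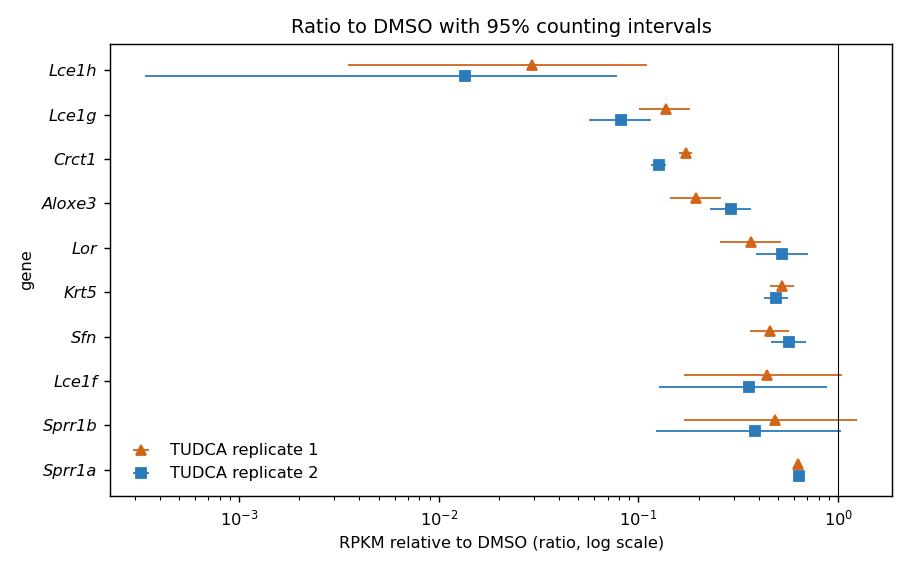
Ratio of RPKM to DMSO on a log axis for each gene in TUDCA replicate 1 (triangles) and replicate 2 (squares), with bars for exact 95% intervals from the reads, which cover counting error only. The intervals lie below 1 in both libraries for every gene except Lce1f and Sprr1b, and are widest for Lce1h with 2 reads and 1 read.

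Aloxe3 (ENSMUSG00000020892), the epidermal lipoxygenase eLOX3 that acts on products of 12R-lipoxygenase, read 17.1 RPKM in DMSO and 3.31 and 4.93 with TUDCA. It was 5.15 times (counting interval 3.87 to 6.95) and 3.46 times (2.73 to 4.41) lower. Its reads of 324, 57 and 92 are the smallest whole numbers that fit. They go with a length of 1763 bases, well below the 6397 bases of exon annotated for it, so a multiple of them is possible and the intervals may be too wide. Alox12b, which encodes 12R-lipoxygenase and is the next gene, had no read in any library, where 3 reads would give 0.115 to 0.126 RPKM. Per1, a circadian clock gene beyond Hes7 on the other side, read 15.6 RPKM in DMSO and 8.39 and 9.67 with TUDCA.

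Sfn (ENSMUSG00000047281), the 14-3-3 sigma protein of stratified epithelia, read 15.9 RPKM in DMSO and 7.24 and 9.03 with TUDCA, 2.20 and 1.77 times lower. Its transcript shares 15.03% of its 50-base stretches with other genes, mostly Gm7850. The 6 other 14-3-3 genes were far more abundant. None of them passed the limma test, which called only 1.77% of all genes higher and 0.876% lower, so little is read from this count. The highest were Ywhae at 529.2 RPKM in DMSO and 520.1 ± 33.2 with TUDCA (SD, n = 2), Ywhag at 437.0 and 353.5 ± 7.7, and Ywhaz at 329.3 and 277.5 ± 26.9. Their median log2 difference was -0.10 against 0.04 over all genes.

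Krt5 (ENSMUSG00000061527), the type II keratin of basal keratinocytes, read 29.5 RPKM in DMSO and 15.5 and 14.5 with TUDCA, 1.90 and 2.04 times lower. The TUDCA libraries lay within counting error of each other (ratio 0.935, interval 0.794 to 1.10). Its exons overlap Gm44323 on the opposite strand in GENCODE M21, and reads of both cannot be told apart without the strand setting. Krt14, the type I keratin that pairs with Krt5 in epidermis, had no read in any library, where 3 reads would give 0.158 to 0.175 RPKM. The genes next to Krt5, namely Krt6a, Krt6b, Krt71 and Krt72, had no read either. The Krt5 transcript shares 8.52% of its 50-base stretches with other genes, most often Krt6a. How reads that match several genes were counted is not stated, so the lack of reads in Krt6a is uncertain.

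Across the 10 genes the TUDCA libraries did not differ in 1 direction. The ratio of TUDCA replicate 2 to replicate 1 had a counting interval away from 1 for 3 genes. Crct1 (0.733, interval 0.659 to 0.815) and Lce1g (0.598, 0.379 to 0.932) were lower in replicate 2, whereas Aloxe3 (1.49, 1.06 to 2.11) was higher in it.

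Around the 7 genes in the epidermal differentiation complex, most genes had no reads. A list of 47 other structural genes of the complex (other LCE and SPRR genes, involucrin, filaggrin-type proteins) had 44 measured members, of which 35 had no read in any library and none reached a mean of 1 RPKM. Of the 9 with reads, DMSO lay above both TUDCA libraries for 7, which for genes under this level was the case in 26.1%. Of these 7, Lce1e, Sprr2i and Tchhl1 rested on 1 read in DMSO against 0 and 0, and Sprr2h on 3 against 0 and 0. Having reads only in DMSO, these genes could not go the other way, so nothing is read from the count. Tchh, which encodes trichohyalin, went the other way with 1, 4 and 5 reads. Their summed level was 4.56 RPKM in DMSO and 1.28 and 0.761 with TUDCA. Lce1c read 2.01 RPKM in DMSO and 0 and 0.171 with TUDCA, on 12, 0 and 1 reads. Ivl, which encodes the early precursor involucrin, read 0.717, 0.509 and 0.261 RPKM, and Lce6a 0.976, 0.539 and 0.249 RPKM.

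The S100 genes, which flank the complex on both sides, encode small calcium-binding proteins. In the fit across all genes 1.77% were called higher with TUDCA (200 of 11300) and 0.876% lower (99). Of 13 S100 genes measured, 3 had no read and 10 were tested, and none of these was called in either direction. S100a11 read 1297 RPKM in DMSO and 1049 and 1201 with TUDCA, S100a10 873.3, 595.0 and 692.8, and S100a6 110.4, 123.3 and 120.9. The S100 median log2 difference was -0.03.

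**Figure D4:**
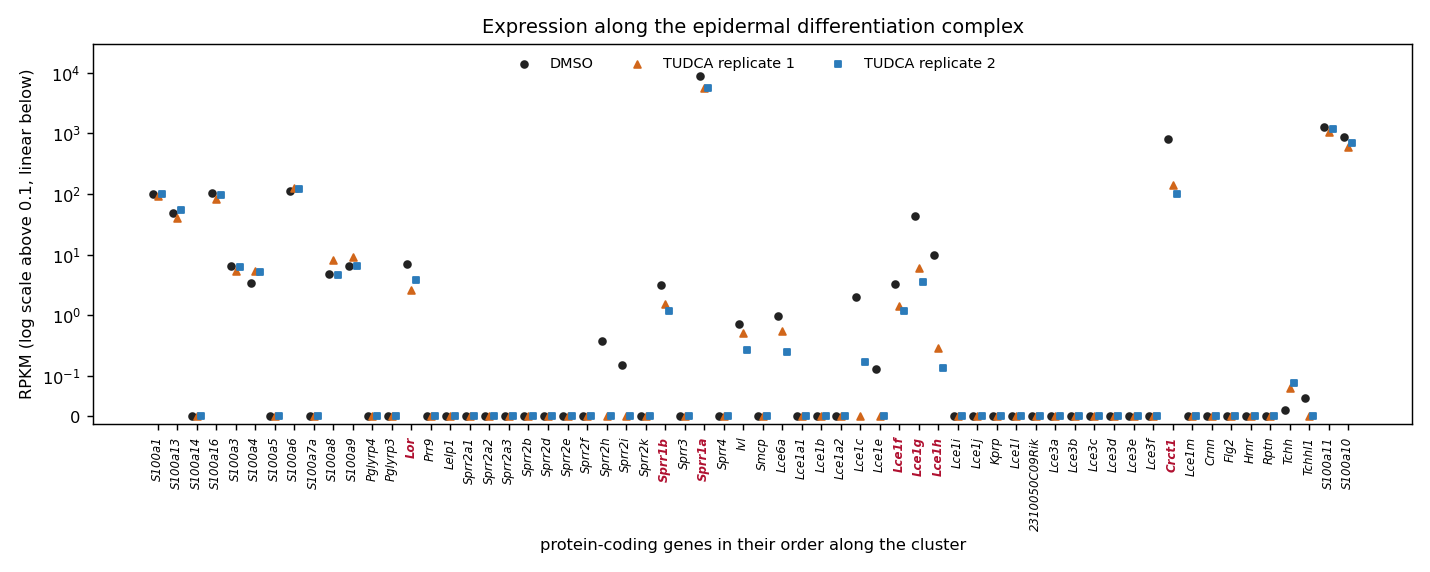
RPKM (log scale above 0.1, linear below) of the measured protein-coding genes in their order along the epidermal differentiation complex, with the 7 members in red. Sprr1a and Crct1 stand out as single high genes between neighbours at 0, Lce1f to Lce1h form 1 group, and the highest S100 genes, S100a11 and S100a10, lie at 1 end.

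Of 36 genes of envelope assembly and desquamation, 10 reached a mean of 1 RPKM. Of these, 1 was called higher, 0 lower, and 9 stayed uncalled. Over all genes tested the shares were 1.77% higher and 0.876% lower, so little is read from these counts. The called gene was Ppl, which encodes periplakin, a plaque protein beneath the envelope. Opposite in direction to the 10 genes, it rose from 2.28 RPKM in DMSO to 8.91 and 11.5 with TUDCA (log2 difference 1.76 ± 0.29, SE, limma adjusted p = 2.7e-07), a call lost without the filter on low values (adjusted p = 0.517). Jup, plakoglobin of desmosomes and adherens junctions, read 178.9 RPKM in DMSO and 162.0 ± 19.9 with TUDCA, Perp, a desmosomal membrane protein, 84.3 and 89.5 ± 5.0, and the matrix protein gene Ecm1 56.0 and 57.4 ± 15.1. Tgm1, the envelope's crosslinking transglutaminase, read 10.6 RPKM in DMSO and 12.8 and 11.6 with TUDCA. The list's median log2 difference was 0.08.

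Of 24 barrier lipid genes, 8 were tested and none was called. The fit called only 1.77% of all genes higher and 0.876% lower, so little is read from this count. The median log2 difference of the 8 was -0.21. Elovl1, a fatty acid elongase, read 169.8 RPKM in DMSO and 149.4 ± 9.7 with TUDCA, Abhd5, a lipase coactivator, 92.6 and 77.5 ± 1.5, and Degs1, the dihydroceramide desaturase, 92.7 and 78.1 ± 14.7.

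Among 26 other keratins, 12 had no read, 6 were tested and none was called, with a median log2 difference of -0.03. With 1.77% of all genes called higher and 0.876% lower, little is read from this lack of calls. The hepatocyte pair Krt8 and Krt18 read 2534 and 3118 RPKM in DMSO, and 2675 ± 227 and 3117 ± 463 with TUDCA. For every 100 RPKM of its fellow type II keratin Krt8 there were 1.17 of Krt5 in DMSO and 0.617 and 0.511 with TUDCA. The biliary keratin Krt19 read 10.7 RPKM in DMSO and 9.50 and 17.0 with TUDCA. Krt17, a keratin of wounded epidermis, read 2.35, 0.865 and 1.35 RPKM and was not called (limma adjusted p = 0.381), and Krt24, under the filter, read 1.31, 0.167 and 0.358 RPKM on 26, 3 and 7 reads.

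Of 36 regulators of epidermal transcription, 19 were tested, of which 2 were called higher, 0 lower, and 17 stayed uncalled. Set beside 1.77% called higher and 0.876% lower over all genes, these counts are too small to read much from. Nfe2l2, which encodes NRF2, rose from 80.4 RPKM to 140.3 and 148.7 (log2 difference 0.84 ± 0.21, limma adjusted p = 0.00423), a call lost without the variance trend (adjusted p = 0.0866) and without the filter (adjusted p = 0.502). Fos, an AP-1 subunit, rose from 2.55 RPKM to 7.04 and 5.89 (log2 difference 1.07 ± 0.30, limma adjusted p = 0.0163), a call lost with quantile normalization, voom and no filter (adjusted p = 0.0628, 0.0583 and 0.560). Fosl1, the AP-1 subunit Fra-1, read 22.8 RPKM in DMSO and 12.1 and 12.9 with TUDCA without passing the test (limma adjusted p = 0.0612). Jund and Junb read 151.1 RPKM each in DMSO, and 151.2 ± 3.7 and 139.3 ± 1.2 with TUDCA. Trp63, the master regulator of stratified epithelium, had no read in any library, where 3 reads would give 0.0332 to 0.0366 RPKM. The list's median log2 difference was 0.05.

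**Figure D5:**
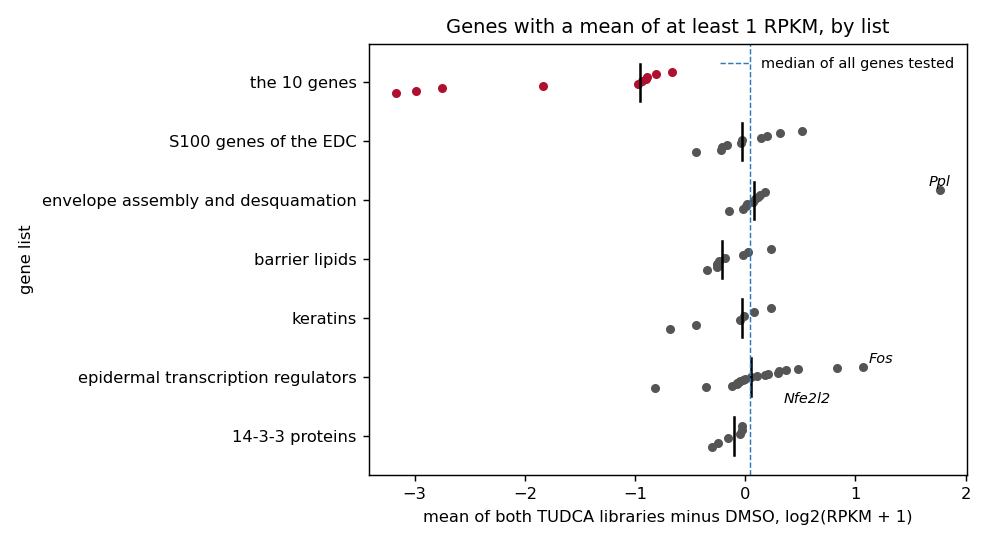
Mean log2(RPKM + 1) difference of the TUDCA libraries from DMSO for the 10 genes and for tested members of 6 related lists, 1 point per gene, with a bar at each list's median and a dashed line at the median of all genes (0.04). The 10 genes lie between -3.17 and -0.66. They were chosen on this contrast, so nothing is read from their distance to the lists. The list medians lie between -0.21 and 0.08, and the 3 called list genes Ppl, Nfe2l2 and Fos lie above 0. Single list genes, Fosl1 (-0.82) and Krt17 (-0.68), lie within the range of the 10.

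Marker genes of the cells that could be present were compared in the same libraries. Of 12 basal keratinocyte markers, Krt14, Krt15, Trp63 and Dsc3 had no read, and the summed level of the list was 38.7 RPKM in DMSO and 42.5 and 30.4 with TUDCA, most of it Itga6. Of 9 suprabasal markers measured, Krt1, Dsg1a, Krtdap and Casp14 had no read, and the sum was 2.67, 2.38 and 2.25 RPKM. Mesothelial markers summed to 0.359, 0.183 and 0.185 RPKM over 6 genes, with Upk1b at 0. The 9 hepatocyte markers were all expressed, with sums of 11858 RPKM in DMSO and 15216 and 13247 with TUDCA, and Hnf4a and Fgb were called higher (limma adjusted p = 0.0123 and 4.3e-08). The Hnf4a call was lost without the variance trend (limma adjusted p = 0.160). Markers of macrophages summed to 191.3, 176.2 and 193.3 RPKM, most of it Cd68. Those of stellate cells and fibroblasts summed to 12.2, 10.6 and 9.31 RPKM, and those of endothelium to 2.89, 4.69 and 3.74. The 6 biliary markers summed to 526.5, 860.9 and 679.2 RPKM, most of it Spp1, while Krt7 and Epcam read 0.348 and 0.273 RPKM in DMSO. The secreted phosphoprotein gene Spp1 was called higher, from 387.5 to 767.5 and 578.2 RPKM (limma adjusted p = 0.00464), a call lost without the variance trend (adjusted p = 0.134). The tight junction gene Cldn4 was called lower, from 107.3 to 57.1 and 51.8 RPKM (log2 difference -0.97 ± 0.22, limma adjusted p = 0.000799). Of all genes tested, 1.77% were called higher and 0.876% lower. Without the filter on low values, the calls of Hnf4a, Fgb, Spp1 and Cldn4 were all lost. The part of these cell markers in the levels of the 10 genes was not tested.

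The genes nearest in pattern to the median of the 10, by the distance between their pairs of log2 differences over 3 libraries, were Mfsd2a, Calr, Hyal1, Oasl1, Ddit3, Ttll11, Mir3091 and Ggct, at distances of 0.10 to 0.17. Mfsd2a, a transporter of lysophospholipids, read 10.1 RPKM in DMSO and 4.10 and 4.25 with TUDCA. Calr, the chaperone calreticulin, read 1360, 677.7 and 669.1 RPKM, and Ddit3, the stress transcription factor CHOP, 69.7, 35.2 and 36.9 RPKM. Mir3091 rested on 5, 2 and 2 reads. With 3 libraries and a shared DMSO value, likeness says only that the log2 differences were of similar size.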

How the data were processed

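The authors deposited RPKM values (reads per kilobase of gene length, scaled to library size), 1 table per library with 37620 Ensembl identifiers. CASAVA, TopHat2 2.0.7, Bowtie2 and HTSeq are named in the submitters' processing notes. Genome build, annotation and strand setting are, for these libraries, not given in the sources used here. GENCODE M21 gave symbols for 32897 identifiers.

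Library totals and whole reads were recovered from exact ratios of the deposited RPKM values. The smallest whole numbers that fit all 3 libraries were used, and a gene may hold a multiple of them. They add up to between 95.7 and 95.8% of the totals.

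Differences were taken on log2(RPKM + 1), a scale that understates changes of low genes. Genes averaging 1 RPKM or more (11300) were fitted across all 3 libraries with limma 3.58.1 in R 4.3.3 (variance trend, Benjamini-Hochberg adjustment, threshold 0.05). The only residual degree of freedom lies between the TUDCA libraries. DMSO, with a single library, was taken to have the same spread. limma gave each gene the spread common to its level in place of its own. An uncalled gene may still differ, since the fit also left part of the true 2-fold changes uncalled when run on simulated data. There DMSO was given the spread of the TUDCA pair, so an equal spread was assumed and not checked. The 10 genes were chosen on the contrast fitted here, so they carry no test. Intervals are exact at 95% and cover counting error only.

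The members and the lists were chosen with earlier results of these data known. Named besides the 10 genes are, per list, up to 4 called genes with the largest difference and the 3 of highest mean RPKM, and the 8 genes nearest in pattern. Of the epidermal differentiation complex list these 3 are Lce1c, Lce6a and Ivl. Other names, among them the genes at 0 reads, those of the complex with 1 to 5 reads, Per1, Tgm1, Krt24, Krt17, Fosl1 and the cell markers, were chosen after their values were seen. As alternatives, the pseudocount was set to 0.1, the filter was dropped or raised to 5 RPKM, and values were rescaled to TPM. Further ones were quantile normalization, no trend, voom on whole reads and leaving out each TUDCA library. A correction for GC content and length was chosen after seeing the data. Lce1d, Lce1k, Flg and S100a7l2 were not analysed here.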

Additional observations from a re-analysis of the deposited data

How the results depend on the processing

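The 10 genes stayed below DMSO in every TUDCA library kept under each of the 6 alternatives run for them. Another pseudocount or a TUDCA library left out could not change this direction. Only rescaling to TPM, quantile normalization and the correction for GC content and length could have done so. The 10 genes were chosen on this contrast, so nothing is read from the count. The number at -1 or below ranged from 4 to 6, with 6 at a pseudocount of 0.1 and without TUDCA replicate 2. With the correction for GC content and length, chosen after seeing the data, Lce1h was at -3.01, Sprr1a at -0.53, Krt5 at -0.84 and Lce1f at -0.74. At a pseudocount of 0.1, Lce1h went from -3.17 to -5.04, Lce1f from -0.89 to -1.27 and Sprr1b from -0.81 to -1.16. Without the filter limma called 0 genes in either direction, lists included (1696 of 19146 had an unadjusted p below 0.05, voom called 267 of 11300), so the called genes of the envelope assembly list went from 1 to 0 and those of the regulator list from 2 to 0. The regulator list held 1 called gene with quantile normalization, with no trend and with voom. Over all genes the rule of size passed 87 higher and 32 lower, and at a pseudocount of 0.1 168 and 57. It passed 72 lower without the filter and 21 lower at a filter of 5 RPKM. Leaving out a TUDCA library gave 65 to 69 lower and 123 to 215 higher. No alternative moved the median of all genes by over 0.1 on the log2 scale. No paired analysis was possible because DMSO has 1 library and the groups share fewer than 2 replicate numbers. Depth limits Lce1f, Sprr1b and the TUDCA values of Lce1h, which rest on few reads.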
